A study of Mus musculus with 8 samples.

Results

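Transcripts of the synaptonemal complex and the meiotic chromosome axis were followed through 4 stages of mouse spermatogenesis. The genes were Sycp1, Sycp2, Sycp3, Syce1, Syce2, Tex12, Hormad1 and Hormad2, chosen by name, and every probe set annotated only to one of them was taken. Each gene had a single probe set, so 8 of the 45101 probe sets, and 8 of the 18193 genes named on the array, made up the set. Type A spermatogonia and type B spermatogonia stood for the stages before meiosis, pachytene spermatocytes for meiotic prophase and round spermatids for the haploid cells after it. Each stage had 2 arrays of the type Mouse 430 2.0, which makes 8 arrays. All groups were total RNA from mice of the mixed BL/6-129 strain, with no treatment named, and the submitters state that the cell preparations were independent. Neither the age of the mice nor the method of cell purification is stated in the labels.

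The synaptonemal complex is a protein zipper that holds homologous chromosomes together during meiotic prophase. SYCP2 and SYCP3 build the lateral elements along each chromosome axis, SYCP1 forms the transverse filaments that cross the gap, and SYCE1, SYCE2 and TEX12 belong to the central element in the middle. HORMAD1 and HORMAD2 bind unsynapsed axes, act in checkpoint signalling there, and are removed as chromosomes synapse. Spermatogonia divide by mitosis, the complex is complete in pachytene spermatocytes, and it has been taken apart before round spermatids form.

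The 8 genes did not follow a common course. Syce1 rose from type B to pachytene cells and read alike in spermatids. Syce2 fell in pachytene cells and was high again in spermatids. Tex12 was highest in type B cells, but its fall to pachytene cells lost its call under some other settings. Its value for type B against type A cells did not pass. Sycp2 and Hormad1 were higher in pachytene cells than in type A spermatogonia, the former with a call that most left-out arrays removed. Sycp1, Sycp3 and Hormad2 passed no test. All genes but Hormad2 lay above the median signal of their array on all 8 arrays, those of type A spermatogonia included. Values are MAS5 signals on a linear scale, so a level is compared only with the same probe set on other arrays.

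**Figure D1:**
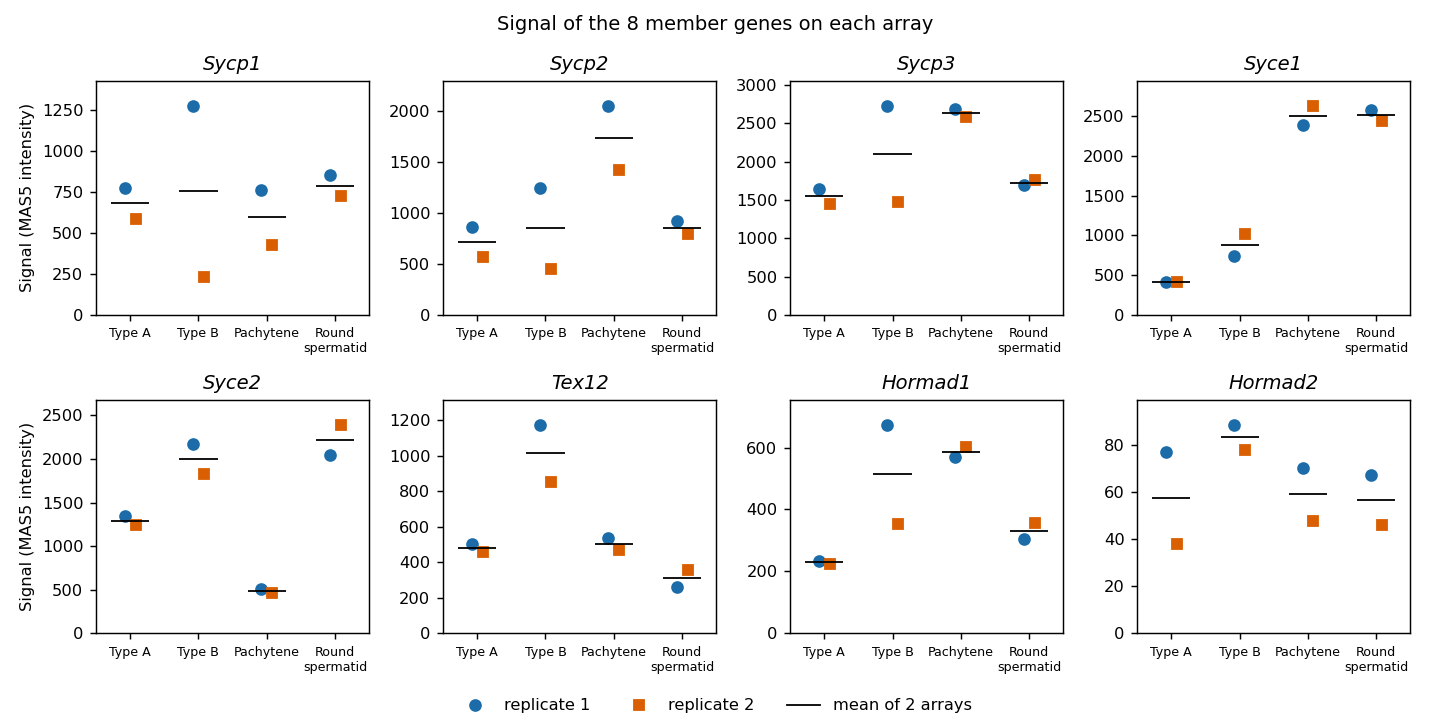
Signal of each gene on each array (vertical axis, MAS5 intensity on a linear scale that starts at 0) in the 4 stages (horizontal axis), with circles for replicate 1, squares for replicate 2 and a line for the mean of the 2 arrays. Syce1 steps up to pachytene cells and stays there, Syce2 drops to 483.6 in pachytene cells only, and Sycp1 is split between 1273.9 and 232 in type B cells.

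The identity of the cells was checked on lists of marker genes, with signals summed over each list. The 8 pachytene markers summed to between 531.8 and 788.1 on both type A arrays and on type B replicate 1, to 7890 on type B replicate 2, and to between 15618 and 18228 on the pachytene and spermatid arrays. The 8 round spermatid markers summed to between 149.5 and 162.6 on the first 3 of these arrays, to 2033 on type B replicate 2, to 3979 and 4609 in pachytene cells and to 25328 and 29658 in spermatids. Type B replicate 2 thus carried transcripts of later stages that replicate 1 lacked, with the protamine gene Prm1 at 686.5 against 1.5. Markers of somatic cells were present as well: the 8 Sertoli cell markers summed to between 4596 and 8585 on the spermatogonial arrays, 2759 and 3560 in pachytene cells and 538.4 and 634.8 in spermatids. The 6 markers of stroma, peritubular and endothelial cells summed to between 7521 and 10497 on the spermatogonial arrays and between 679.6 and 871.9 on the others, with the collagen gene Col1a1 at 2.1 and 5.4 in pachytene cells. The 4 Leydig cell markers measured summed to between 630.9 and 1497 on the spermatogonial arrays, 516.8 and 945 in pachytene cells, and 88.5 and 88.8 in spermatids, and the 6 macrophage and blood cell markers to between 523.7 and 857.5 on the spermatogonial arrays and between 220.9 and 459 on the others. The spermatogonial lists did not set the stages apart as clearly. The 5 markers of type A or undifferentiated spermatogonia measured summed to 1850 and 1792 in type A cells, 1301 and 1127 in type B cells, 1742 and 1623 in pachytene cells and 380.4 and 359.8 in spermatids, with Id4 at 1460.1 and 1320.6 in pachytene cells against 197.1 and 314.5 in type A cells. The 6 markers of differentiating spermatogonia summed to between 2791 and 3819 on the spermatogonial arrays, 1940 and 2248 in pachytene cells and 3216 and 3297 in spermatids. Members of that list went opposite ways: the receptor gene Kit lay between 461.9 and 853.1 in spermatogonia and between 63.5 and 179.2 in the later stages, and Dmrtb1 lay between 254 and 734.6 in spermatogonia and between 1640 and 2607.4 later. The part of other cells in the changes below was not tested, and in such bulk samples fewer cells of a type and less RNA per cell cannot be told apart.

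The promoters of these genes are shown because 5 of the 8 carry the same pair of short motifs close to the transcription start. The E2F core (GCGGGA or, on the opposite strand, TCCCGC) is the site of E2F factors, among them the repressor E2F6 that keeps germ line genes silent in somatic cells, and the E-box CACGTG is bound by MAX and its partners of the same repressor complex. All 8 genes had a promoter in the RefSeq table of build GRCm38.p6, which gives 250 bases before and 50 bases after each annotated start, and Syce2 and Hormad1 had 2 starts each. The E2F core was found in 5 genes (Sycp1, Sycp3, Syce2, Tex12 and Hormad1) against 20.0% of all 32851 promoters of that length, and the E-box in the same 5 genes against 7.15%. Among the 14281 promoters with at least 10 CpG dinucleotides, the lowest number in any window of these genes, the shares were 40.3% and 10.9%. Both together were found in a single window in all 5 genes, against 1.99% of all promoters and 4.35% of those with as many CpG dinucleotides. For every motif a gene was counted if any of its starts held it, whereas the shares are of single windows. By window, 7 of 10 held the E2F core and 6 of 10 the E-box. The upstream window of Syce2 held an E2F core but no E-box. The windows of the 8 genes held 10 to 33 CpG dinucleotides against a median of 7 over all promoters. The matches are of letters only, and binding was not measured. The stretches printed are the 150 bases before the start, 5′ to 3′ on the strand of the gene, with E2F cores and E-boxes in capitals. They lie at chr10:88459437-88459586 (plus strand) for Sycp3, chr3:95559527-95559676 (plus) for the upstream start of Hormad1, chr9:50561269-50561418 (minus) for Tex12, chr8:84872108-84872257 (plus) for the downstream start of Syce2, and chr3:102936101-102936250 (minus) for Sycp1, whose E2F core lies just after the start and outside the stretch. Syce1, at chr7:140787855-140788004 (minus), is printed for contrast, since it held neither motif.
Sycp3: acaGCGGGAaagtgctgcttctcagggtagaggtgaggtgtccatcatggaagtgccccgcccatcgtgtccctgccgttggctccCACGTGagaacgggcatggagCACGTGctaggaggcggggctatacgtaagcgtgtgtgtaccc
Hormad1: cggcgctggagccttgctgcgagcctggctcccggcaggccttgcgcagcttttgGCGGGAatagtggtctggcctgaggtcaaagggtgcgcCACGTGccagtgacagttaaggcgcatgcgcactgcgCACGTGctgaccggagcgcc
Tex12: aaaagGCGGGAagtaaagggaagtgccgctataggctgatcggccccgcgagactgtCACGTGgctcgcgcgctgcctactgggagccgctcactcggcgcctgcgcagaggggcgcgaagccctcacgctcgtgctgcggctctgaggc
Syce2: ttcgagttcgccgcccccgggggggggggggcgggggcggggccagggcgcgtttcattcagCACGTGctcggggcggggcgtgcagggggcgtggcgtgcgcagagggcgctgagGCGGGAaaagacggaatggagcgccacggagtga
Sycp1: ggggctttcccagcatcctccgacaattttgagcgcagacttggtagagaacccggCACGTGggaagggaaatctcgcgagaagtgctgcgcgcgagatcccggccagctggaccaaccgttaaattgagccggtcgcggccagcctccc
Syce1: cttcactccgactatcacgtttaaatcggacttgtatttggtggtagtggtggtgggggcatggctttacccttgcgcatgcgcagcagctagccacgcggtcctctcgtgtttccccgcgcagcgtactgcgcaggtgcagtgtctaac

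In Sycp3 the 2 E-boxes began 64 and 43 bases before the start, and in Hormad1 57 and 20 bases before its upstream start. The genes with both motifs did not share a course over the stages. Against type A cells, pachytene cells read lower for Syce2 and higher for Hormad1. A link between the motifs and the course over the stages was not tested. Sycp2, Syce1 and Hormad2 held neither motif in these windows. STRA8 and MEIOSIN are the factors that switch on meiotic genes. The core CCTCAG of their motif was found on either strand in 6 of the 8 genes against 26.8% of all promoters. By window, 7 of 10 held it, and its share among promoters with at least 10 CpG dinucleotides was not computed. The MYB core AACNG was found in all 8 genes against 80.3%, and the core TGACG of the cAMP response element in 2 genes against 20.8%.

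**Figure D2:**
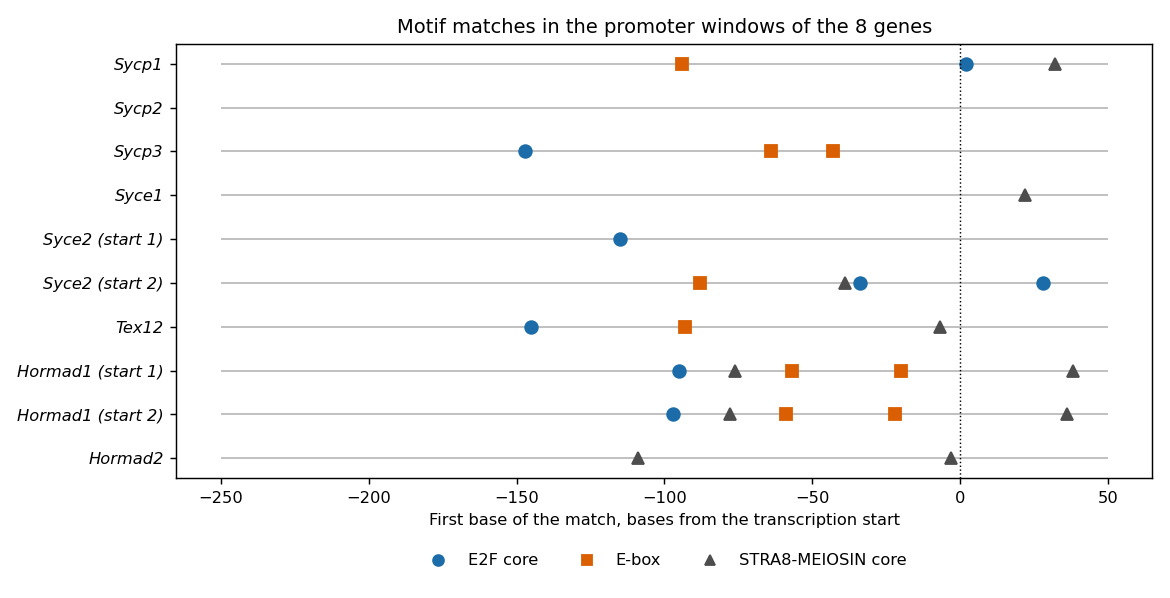
Position of motif matches in the promoter windows (horizontal axis, bases from the transcription start, which is the dotted line), with a line for each annotated start of each gene (vertical axis). Circles are E2F cores, squares E-boxes and triangles STRA8-MEIOSIN cores; Sycp2 shows none of the 3, and the E-boxes of all 5 genes that have them begin between 94 and 20 bases before the start.

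Syce1, a central element protein, had the widest span over the stages among the 8. Its signal (probe set 1428685_at) was 416.5 and 411.2 in type A cells, 739.3 and 1013.9 in type B cells, 2383.2 and 2625.1 in pachytene cells, and 2575.7 and 2442.8 in round spermatids. The levels climbed over the first 3 stages with no overlap between neighbours, and the pachytene and spermatid arrays overlapped. Pachytene cells exceeded type B cells by 1.51 ± 0.22 on the log2 scale (2.85-fold; limma adjusted p = 0.00102) and type A cells by 2.55 ± 0.22 (5.86-fold; adjusted p = 0.000161), where ± is the standard error of the fit with n = 2 arrays against 2. All log2 differences are of log2(signal + 16). Both calls held under all 17 alternative settings, with log2 values from 1.29 to 2.59 against type B and from 2.42 to 3.35 against type A. The difference between spermatids and pachytene cells was 0.00 ± 0.22 (adjusted p = 0.993). Type B cells read 1.04 ± 0.22 above type A cells (adjusted p = 0.613), in a range of 0.76 to 1.26 over the alternatives. The value was 1.26 without type B replicate 1, which leaves only replicate 2, the type B array with transcripts of later stages.

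Syce2, which binds TEX12 in the central element, went the opposite way in pachytene cells. Its signal (1429270_a_at) was 1341 and 1247.4 in type A cells, 2177.6 and 1825.1 in type B cells, 503.9 and 463.3 in pachytene cells, and 2042.1 and 2394.7 in spermatids. Both pachytene arrays lay below all other arrays, and the type B and spermatid arrays overlapped. The signal fell by 2.01 ± 0.20 on the log2 scale from type B to pachytene cells (4.03-fold lower; adjusted p = 0.000317) and rose by 2.16 ± 0.20 from pachytene cells to spermatids (4.46-fold; adjusted p = 0.000303). These 2 calls held under all 17 alternatives, the fall with values from -2.17 to -0.93 and the rise from 2.04 to 2.27. Against type A cells the pachytene signal was lower, at -1.39 ± 0.20 (adjusted p = 0.000842), and read -0.59 (adjusted p = 0.125) when arrays were centred on ribosomal protein genes, the highest adjusted p of its alternatives, which began at 0.000244. Type B cells read 0.62 ± 0.20 above type A cells with no overlap (adjusted p = 0.613).

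Tex12, the partner of SYCE2, was highest in type B cells. Its signal (1421183_at) was 505 and 460.4 in type A cells, 1175.7 and 854.1 in type B cells, 535 and 468.1 in pachytene cells, and 262.5 and 357 in spermatids. Both type B arrays lay above all others, the spermatid arrays lay below all others, and the type A and pachytene arrays overlapped. Tex12 fell by 0.98 ± 0.25 on the log2 scale from type B to pachytene cells (adjusted p = 0.012). Over the alternatives the adjusted p ran from 0.00511 to 0.805: the call was lost without pachytene replicate 2 (-0.89, adjusted p = 0.075), without type B replicate 1 (-0.75, 0.0579) and with arrays centred on the 75th percentile (-0.65, 0.0547), and the value was 0.10 (0.805) with centring on ribosomal protein genes. The values for type B against type A cells, 1.03 ± 0.25 (adjusted p = 0.613), and for spermatids against pachytene cells, -0.68 ± 0.25 (adjusted p = 0.0779), did not pass. Of the central element genes in this set, then, Syce1 rose while Syce2 and Tex12 fell on the same pachytene arrays against type B cells. The fall of Tex12 had the exceptions just given.

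**Figure D3:**
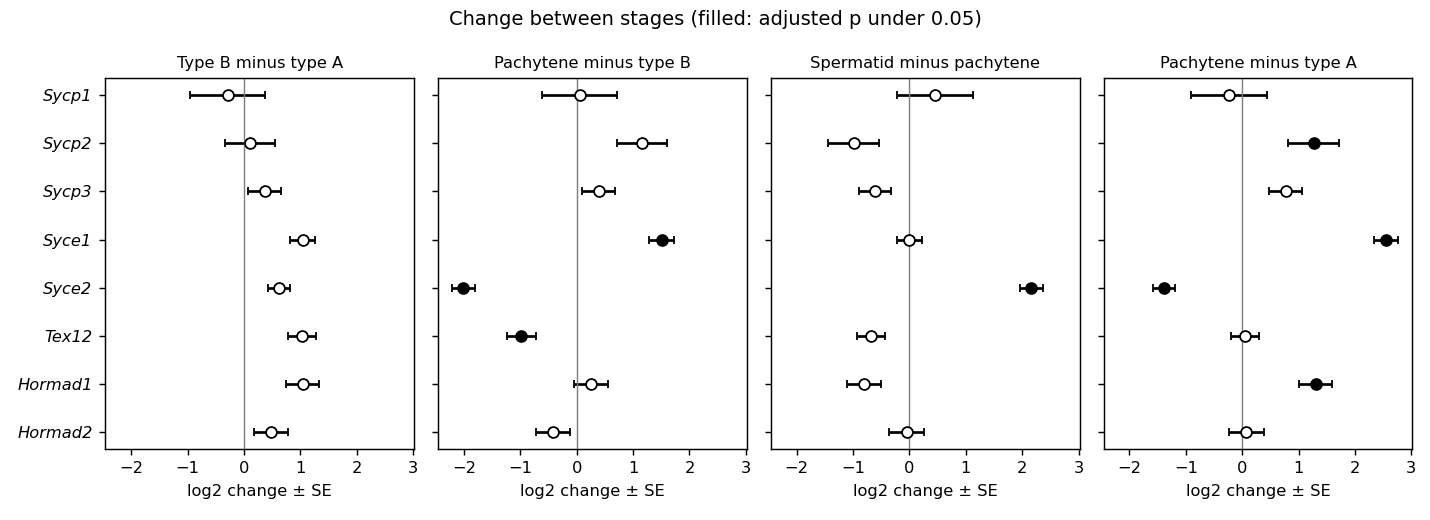
Log2 change of each gene (horizontal axis, with bars for the standard error) in the 4 comparisons; filled points passed an adjusted p of 0.05. Syce1 and Syce2 lie on opposite sides of 0 in both comparisons of pachytene cells with spermatogonia, and no point is filled for type B minus type A.

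Sycp2 and Sycp3, the lateral element pair, were both highest on the mean in pachytene cells. Sycp3 (1449534_at) read 1641.5 and 1453.8 in type A cells, 2727.5 and 1475.3 in type B cells, 2694.4 and 2585.5 in pachytene cells, and 1698.4 and 1757.8 in spermatids. The type B arrays differed so much that they overlapped both the pachytene and the spermatid arrays, and type A cells lay below spermatids with no overlap. Pachytene cells read 0.77 ± 0.29 above type A cells (adjusted p = 0.0525) and 0.39 ± 0.29 above type B cells (adjusted p = 0.293). The values against type A cells passed under 7 of 17 alternatives, in a range of 0.51 to 1.57 with adjusted p from 0.00506 to 0.181, and passed without type B replicate 1 and without type B replicate 2 (0.00928 for each), where the value stayed at 0.77. Against type B cells, leaving out type B replicate 1 gave 0.83 (adjusted p = 0.0227) and leaving out replicate 2 gave -0.05 (0.881), so its direction rested on which type B array was used. Spermatids read -0.61 ± 0.29 against pachytene cells (adjusted p = 0.169), and 0.0422 without either type B array. Those 2 settings called it, and the adjusted p reached 0.395 under others.

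Sycp2 (1444122_at) read 858.7 and 565.4 in type A cells, 1243.2 and 452.5 in type B cells, 2043.3 and 1415.8 in pachytene cells, and 914.3 and 790.7 in spermatids. Both pachytene arrays lay above all others, and the other 3 stages overlapped. Pachytene cells exceeded type A cells by 1.27 ± 0.45 on the log2 scale (2.41-fold; adjusted p = 0.0422). That call passed under 8 of 17 alternatives, with adjusted p from 0.00556 to 0.188 and values from 0.93 to 2.07. It was lost without type A replicate 1 (1.56, adjusted p = 0.0526) or replicate 2 (0.97, 0.177), without pachytene replicate 1 (1.01, 0.188) or replicate 2 (1.53, 0.0668), and without either spermatid array (1.27, 0.0707). It was also lost with a pseudocount of 1 (1.29, 0.0659), with no filter on low signal (1.27, 0.0654) and with quantile normalization (0.93, 0.146). Against type B cells the value was 1.16 ± 0.45 (adjusted p = 0.0636), and 1.87 without type B replicate 1 (0.00529) and 0.45 without replicate 2. The range of the adjusted p was 0.00296 to 0.326. Spermatids read -0.99 ± 0.45 against pachytene cells (adjusted p = 0.152), and the same value passed at 0.0345 without either type B array, in a range up to 0.475.

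Sycp1, the transverse filament gene, showed no stage difference beyond its spread. Its signal (1427291_at) was 776.3 and 583.7 in type A cells, 1273.9 and 232 in type B cells, 762.1 and 427.1 in pachytene cells, and 851.3 and 725 in spermatids. Its highest and its lowest value over all 8 arrays were both in type B cells, and each stage overlapped its neighbour in the order of the means. The log2 values were -0.29 ± 0.67 for type B against type A (adjusted p = 0.909), 0.05 ± 0.67 for pachytene against type B (0.953), 0.45 ± 0.67 for spermatids against pachytene (0.688) and -0.23 ± 0.67 for pachytene against type A (0.787). For pachytene against type B, leaving out type B replicate 1 gave 1.24 (adjusted p = 0.0343) and leaving out replicate 2 gave -1.14 (0.0416), opposite calls from the same gene.

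Hormad1, which marks unsynapsed axes, was lowest in type A cells. Its signal (1450292_a_at) was 234.2 and 223.9 in type A cells, 674.2 and 353.9 in type B cells, 570.4 and 600.5 in pachytene cells, and 305.1 and 355.5 in spermatids. Both type A arrays lay below all others, type B cells overlapped pachytene cells and spermatids, and pachytene cells lay above spermatids. Pachytene cells exceeded type A cells by 1.30 ± 0.30 on the log2 scale (2.45-fold; adjusted p = 0.00658), a call kept under all 17 alternatives with values from 1.15 to 2.10. The value for type B against type A cells was 1.04 ± 0.30 with no overlap (adjusted p = 0.613). Pachytene against type B cells gave 0.25 ± 0.30 (adjusted p = 0.51), with 0.70 without type B replicate 1 (0.0442) and -0.20 without replicate 2 (0.512), in a range of 0.00971 to 0.811. Spermatids read -0.80 ± 0.30 against pachytene cells (adjusted p = 0.0836), and the same value passed at 0.0165 without either type B array, with 0.295 the highest of its alternatives.

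Hormad2, the second of the pair, was near the middle of the array throughout. Its signal (1454052_at) was 77.2 and 38.1 in type A cells, 88.9 and 78.1 in type B cells, 70.5 and 48 in pachytene cells, and 67.4 and 46.2 in spermatids, above the array median on 7 of 8 arrays. The type B arrays lay above all others, and the other 3 stages overlapped. No comparison passed, with log2 values from -0.42 ± 0.31 (pachytene against type B, adjusted p = 0.297) to 0.48 ± 0.31 (type B against type A, 0.646). At this signal the pseudocount of 16 reduces the size of a change.

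Counted over the 8 probe sets, the calls are given beside the share of all probe sets called the same way. All 8 were among the 28623 probe sets tested. With all 8 arrays, limma called none of the 8 between type A and type B cells and 0% of all tested probe sets in either direction. At an unadjusted p under 0.05, 1121 were higher and 1201 lower, and the smallest adjusted p was 0.613. In that comparison 5 of the 8 were higher in type B cells without overlap, against 14.9% of all probe sets, and none was lower without overlap, against 20.2%. The 5 were Syce1, Syce2, Tex12, Hormad1 and Hormad2, and the median log2 value was 0.55 over the 8 and -0.06 over all. Without type B replicate 1, which leaves only the type B array with transcripts of later stages, the value of Syce1 was 1.26.

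From type B to pachytene cells, 1 of the 8 rose (Syce1, against 20.3% of all probe sets) and 2 fell (Syce2 and Tex12, against 29.5%), with medians of 0.15 over the 8 and -0.14 over all. Without overlap, 2 of the 8 were higher (Syce1 and Sycp2, against 33.6% of all probe sets) and 3 lower (Syce2, Tex12 and Hormad2, against 43.4%). Without type B replicate 1, 5 rose (Syce1, Sycp1, Sycp2, Sycp3 and Hormad1) and 1 fell, against 17.1% and 24.4% of all probe sets in that setting. Without replicate 2, 1 rose and 3 fell, against 19.0% and 27.9%. Without pachytene replicate 2 the value of Tex12 was -0.89, against -0.98 with all arrays. From pachytene cells to spermatids 1 rose (Syce2, against 11.7%) and none fell (against 15.7%), with medians of -0.33 and -0.09. Without overlap, 1 was higher (Syce2, against 28.9%) and 4 lower (Sycp2, Sycp3, Tex12 and Hormad1, against 39.9%). Without type B replicate 1, and likewise without replicate 2, 3 fell (Sycp2, Sycp3 and Hormad1), against 18.1% of all probe sets, which is also more than the 15.7% with all arrays. Between type A and pachytene cells 3 rose (Syce1, Sycp2 and Hormad1, against 22.0%) and 1 fell (Syce2, against 34.7%), with medians of 0.42 and -0.27. Without overlap, 4 were higher (Syce1, Sycp2, Sycp3 and Hormad1, against 31.9%) and 1 lower (Syce2, against 47.1%). The last 3 comparisons all use the pachytene arrays, so their values are not independent. Centring on ribosomal protein genes moved the median of all probe sets from -0.14 to 0.94 for pachytene against type B and from -0.27 to 0.53 for pachytene against type A. With that setting 4 of the 8 rose and 1 fell in the former, against 53.1% and 8.03% of all probe sets, and 5 rose and none fell in the latter, against 39.6% and 13.4%.

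The spread between arrays of a stage was itself uneven among the genes. In type B cells replicate 1 exceeded replicate 2 by 2.38 on the log2 scale for Sycp1, 1.43 for Sycp2, 0.90 for Hormad1 and 0.88 for Sycp3, all beyond 0.59, the upper quartile of the size of that difference over all tested probe sets. Tex12, Syce2 and Hormad2 differed by 0.45, 0.25 and 0.16 in the same direction, and Syce1 by -0.45. Syce1 was thus the only gene of the 8 with the higher signal on type B replicate 2, the array with the pachytene and spermatid markers. In type A cells the largest gap was 0.78 for Hormad2, in pachytene cells 0.81 for Sycp1, and in spermatids 0.42 in size for Tex12 and Hormad2. Because the fit shares 1 spread over the stages, the type B gaps widen the errors of Sycp1, Sycp2, Sycp3 and Hormad1 in every comparison. Leaving out a type B array narrows these errors, at an unchanged value where the comparison does not use type B cells.

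**Figure D4:**
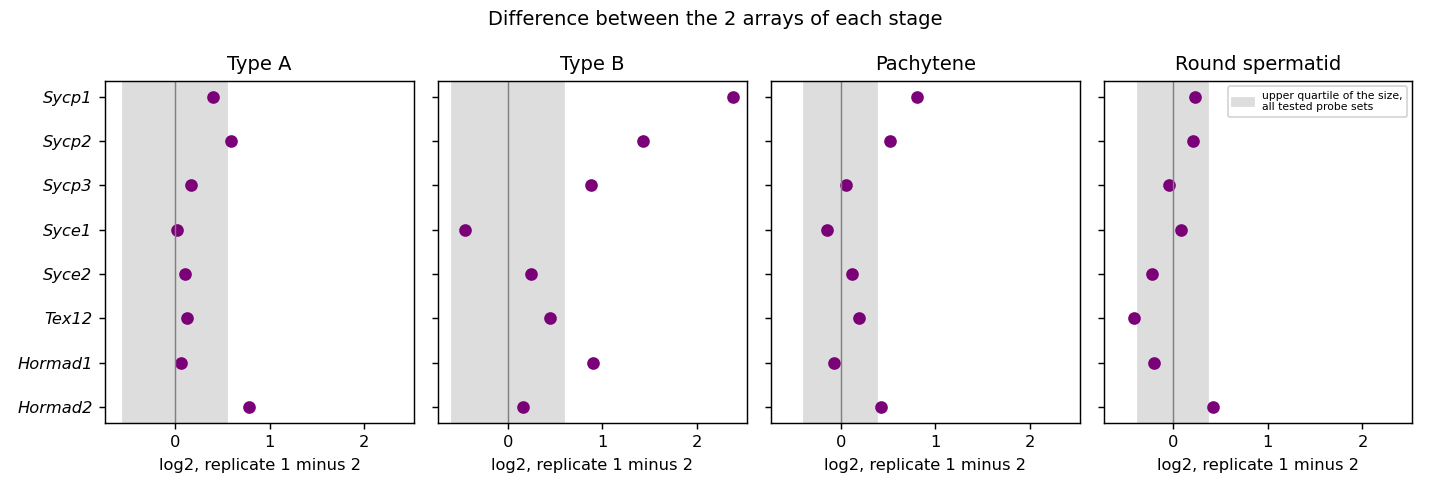
Log2 difference between replicate 1 and replicate 2 of each stage (horizontal axis) for each gene, with a grey band to the upper quartile of its size over all tested probe sets on both sides of 0. In type B cells Sycp1, Sycp2, Sycp3 and Hormad1 lie beyond the band on the side of replicate 1.

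The likeness of the 8 genes is described over the 8 arrays, which share their stages. The log2 signals of Sycp3 correlated with those of Hormad1 at r = 0.92 and with those of Sycp2 at 0.91, and Sycp2 with Hormad1 at 0.72, while no other pair of the 8 genes exceeded 0.56. Syce2 ran against Sycp2 at -0.62 and had r = 0.07 with its partner Tex12. Of 10078 other genes whose stage means spanned at least 1 on the log2 scale, those closest to Syce1 were Phactr3, the sperm enolase gene Eno4 and the RNA-binding protein gene Larp1b (r = 0.9967, 0.9964 and 0.9956). Closest to Syce2 were Ecsit, 1700013H16Rik and the meiotic gene M1ap (0.9979, 0.9924 and 0.9834), all lowest in pachytene cells, with M1ap at 49.1 and 30.2 there against 372.4 and 398.4 in spermatids. Closest to Hormad1 were the acetyl-CoA synthetase gene Acss2, the meiotic RNA regulator Meioc and the telomere attachment gene Terb1 (0.9685, 0.9564 and 0.8888). Closest to Tex12 were Cilp, H2-K1 and the centromere protein gene Cenps (0.9659, 0.934 and 0.928), and closest to Sycp2 were Luc7l2, Cep290 and Ppp2r3d (0.9235, 0.9205 and 0.9141). Sycp1, Sycp3 and Hormad2 spanned less than 1 over the stages and were not compared; 5 of the 8 genes, Sycp2 and Hormad1 included, spanned less than the median of 1.38 over all tested probe sets.

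Other genes of synapsis, cohesion and recombination went both ways at the same steps. Of 42 such genes, 31 had a probe set of their own and 28 passed the filter on low signal. Among these 28, none passed between type A and type B cells, 9 rose and 8 fell from type B to pachytene cells, against 20.3% and 29.5% of all probe sets. From there to spermatids 5 rose and 8 fell, against 11.7% and 15.7%, and between type A and pachytene cells 12 rose and 7 fell, against 22.0% and 34.7%. Their medians were 0.32, 0.06, 0.00 and 0.32 in these comparisons and those of all tested probe sets -0.06, -0.14, -0.09 and -0.27. Centring on ribosomal protein genes gave 16 higher and 4 lower from type B to pachytene cells, against 53.1% and 8.03% of all probe sets. From there to spermatids that centring gave 5 lower, against 9.38%. An array left out leaves its stage with a single array, and some of these counts moved then as well.

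Some genes of this list fell far, in part to signals below the array median. From type B to pachytene cells the crossover gene Tex11 fell by 4.25 ± 0.31 on the log2 scale, Stra8, needed for entry into meiosis, fell by 3.43 ± 0.29, and the recombinase gene Dmc1 fell by 3.21 ± 0.34 (adjusted p = 0.000154, 0.000183 and 0.000362). In pachytene cells Tex11 read 29.9 and 23.7 and Dmc1 34.9 and 26.7, below the array medians of 36.2 and 34.2. Stra8 read 61.3 and 89.3, above these medians. No detection calls were at hand, so the size of such a change depends on the pseudocount: with pseudocounts of 1 and 64 the values were -4.85 and -3.25 for Tex11, -3.72 and -2.35 for Dmc1 and -3.67 and -2.88 for Stra8, and each passed. Spo11, whose product cuts DNA to start recombination, rose by 2.68 ± 0.22, Psmc3ip, a cofactor of strand exchange, by 2.20 ± 0.48 and the BRCA2-binding Hsf2bp by 1.55 ± 0.19 (0.000174, 0.00611 and 0.000599). Of the 10 genes of strand exchange and crossover tested, 5 rose and 2 fell, against 20.3% and 29.5% of all probe sets. Of the 6 genes of axis remodelling and break formation tested, 4 fell and 1 rose, against 29.5% and 20.3%. Among them Trip13, the ATPase that strips HORMAD proteins from synapsed axes, fell by 1.84 ± 0.28 (adjusted p = 0.00131). Of the 6 further genes of the central element, axis and telomere attachment, 2 rose and none fell, against 20.3% and 29.5%. The 2 were Majin at 0.85 ± 0.26 and Terb2 at 0.69 ± 0.24 (0.0261 and 0.0456). Against type A cells the same 3 genes had the lowest values in pachytene cells (Tex11 -3.96, Stra8 -3.10 and Dmc1 -2.49), and Psmc3ip, Spo11 and Hsf2bp were the highest (3.18, 3.13 and 2.52). Trip13 and Terb2 were named here after their values were seen, as were Terb1, Sun1 and Syce3 in what follows.

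From pachytene cells to spermatids the meiotic cohesin Rec8 rose by 4.58 ± 0.33 on the log2 scale, from pachytene signals below the array median, and by 5.92 and 3.22 with pseudocounts of 1 and 64. It read 85.8 and 78.2 in type A cells, 111.6 and 86.9 in type B cells, 24.8 and 3.6 in pachytene cells, and 680.4 and 638.5 in spermatids, so that, as with Syce2, the pachytene arrays lay below all others and the call passed in both directions (adjusted p = 0.00184 for the fall from type B cells and 0.000134 for the rise). Tex11 and Dmc1 rose by 2.32 ± 0.31 and 1.99 ± 0.34 at the same step (0.00141 and 0.00418). The genes that fell most were Mlh3, a crossover resolution factor, at -1.84 ± 0.19, Majin at -1.34 ± 0.26 and Spo11 at -1.26 ± 0.22 (0.000448, 0.00677 and 0.00425). Of the 6 genes of the central element, axis and telomere attachment, 4 fell (Majin, Terb1, Terb2 and Sun1) and none rose, against 15.7% and 11.7% of all probe sets. The central element gene Syce3 read 584.3 and 786 in spermatids against 308.3 and 358.1 in pachytene cells without passing.

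**Figure D5:**
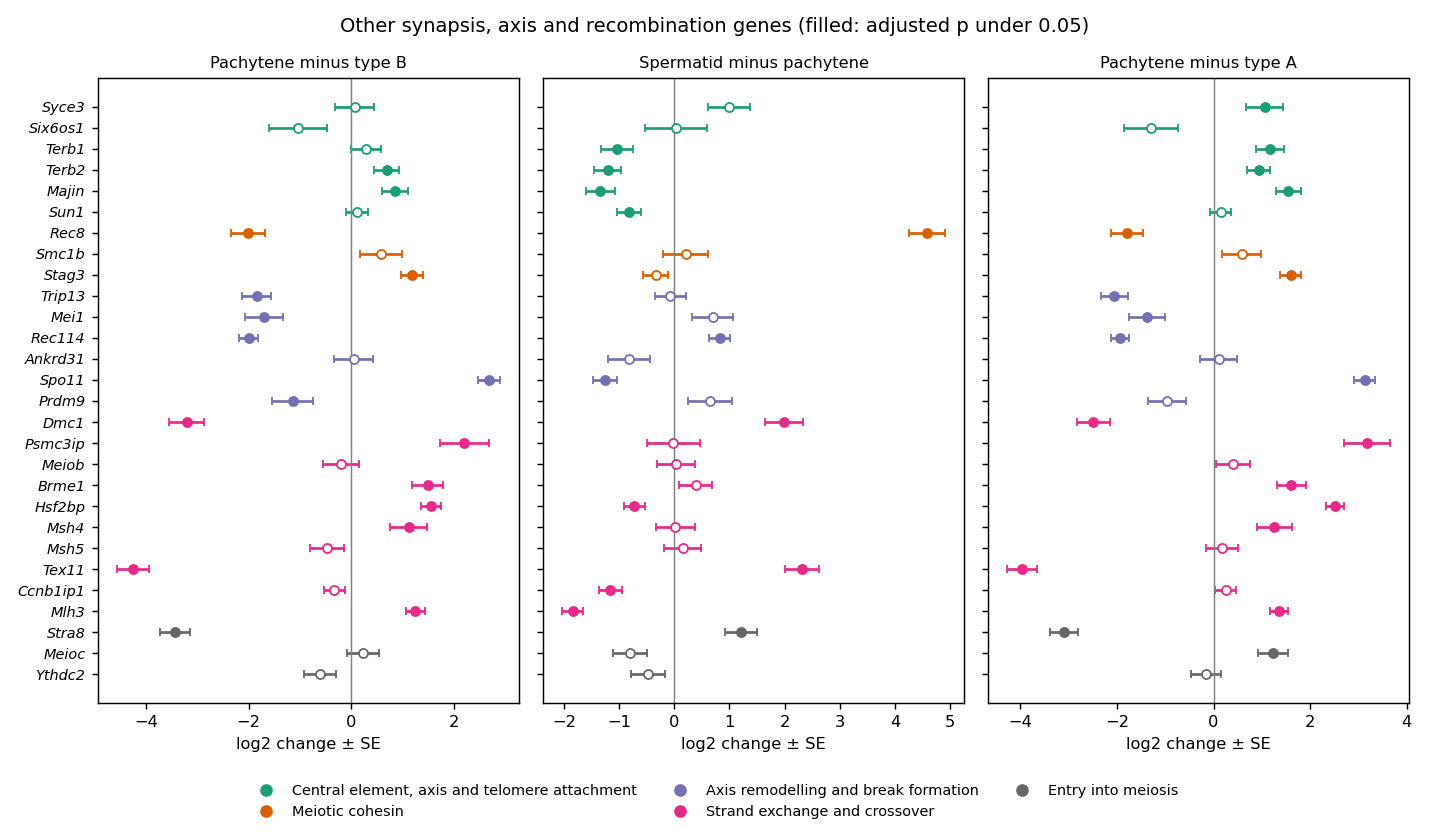
Log2 change (horizontal axis, with bars for the standard error) of 28 other synapsis, cohesin, recombination and meiotic entry genes in 3 comparisons, coloured by group; filled points passed an adjusted p of 0.05. Tex11, Stra8 and Dmc1 lie farthest to the left in both comparisons of pachytene cells with spermatogonia, and Rec8 farthest to the right from pachytene cells to spermatids.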

How the data were processed

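Gene expression was measured in total RNA of 4 kinds of germ cell with 8 arrays. The authors deposited 1 intensity per probe set and array, computed by MAS5 according to the submitters' processing notes; the version and detection calls are not named there. These deposited values had a mean of 125.0 on every array once the lowest and highest 2% were left out, so a change in total RNA per cell cannot be seen. Median signals were 33.7 to 51.9 per array. Precision is limited by having 2 arrays per stage.

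Gene names came from the platform annotation and were updated through Entrez identifiers to RefSeq symbols (34741 of 34945 probe sets with a single gene matched; 932 with several genes and 9160 with none were left unnamed). Non-control probe sets above their array's median on at least 2 of 8 arrays were tested, 28623 in all. log2(signal + 16) was fitted with limma 3.58.1 in R 4.3.3 (1 mean per stage, eBayes without trend, 4 residual and 3.91 prior degrees of freedom). Tests were two-sided, with Benjamini-Hochberg adjustment over all tested probe sets of a comparison and calls at 0.05. An exact permutation test of 2 arrays against 2 cannot go below p = 0.333. The fit was tested on simulated data.

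The genes, lists and comparisons were chosen with earlier results of these data known. For the list genes the probe set with the highest mean stood for the gene. From the other meiotic genes, the 3 largest rises and 3 largest falls that passed in a comparison were to be named, and for each of the 8 genes spanning at least 1 over the stages the 3 genes with the closest profile. Some markers are in 2 lists. Alternatives were pseudocounts of 1 and 64, no filter, 3 other scalings (quantile normalization, centring on the 75th percentile or on ribosomal protein genes), eBayes with trend, the replicate number as a block, 1 probe set per gene, and each array left out. Promoter sequences are from RefSeq, build GRCm38.p6.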

Additional observations from a re-analysis of the deposited data

How the results depend on the processing

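Of the 32 single-gene comparisons, the calls of Syce1 and Hormad1 in pachytene against type A cells, of Syce1 and Syce2 in pachytene against type B cells and of Syce2 in spermatids against pachytene cells held in all 17 alternatives, and those of Tex12, Sycp2 and of Syce2 against type A cells did not, as given above. For changed counts and directions the cause was not tested, except that a setting with 1 probe set per gene tests fewer features.

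Of the 8 genes, those higher in pachytene than in type B cells numbered 4 with ribosomal centring, against 53.1% of all probe sets. They numbered 2 with centring on the 75th percentile and 2 with the replicate block. Those lower numbered 1 with either centring, against 8.03% of all probe sets with ribosomal centring. Shares of all probe sets are not given for the 75th percentile and the replicate block, so those counts are not read against a background. Against type A cells, ribosomal centring gave 5 higher and 0 lower, against 39.6% and 13.4% of all probe sets. Leaving out arrays gave 0 to 1 higher in type B than type A cells, 1 to 5 higher and 1 to 3 lower in pachytene than type B cells, and 0 to 3 lower in spermatids. The 1 higher came without type B replicate 1, against 3.68% of all probe sets. The 5 higher came without the same array, against 17.1%, and the 3 lower than type B cells without replicate 2, against 27.9%. Over all left-out arrays that comparison had shares of 13.3% to 20.5% higher and 21.8% to 30.7% lower. The 3 lower in spermatids came without type B replicate 1 or 2, against 18.1%. Each such fit leaves a stage with 1 array. Over all probe sets, 1 probe set per gene gave 3607 higher and 4625 lower (pachytene against type B), 3855 and 5042 (against type A) and 2692 lower (spermatids against pachytene), against 5805 and 8431, 6286 and 9924, and 4504. Ribosomal centring gave 15186 and 2299, 11341 and 3823, and 2684. Left-out arrays gave 0 to 1053 higher and 0 to 80 lower in type B than type A cells, 3812 to 5856 higher in pachytene than type B cells, and 2085 to 3791 higher and 1817 to 5185 lower in spermatids.

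Directions turned as follows. With ribosomal centring, Hormad2 read 0.66 and Tex12, lower in 13 of 17 alternatives by the test, 0.10 (pachytene against type B), Sycp1 0.57 (pachytene against type A), Sycp2 -0.17 (type B against type A) and Hormad2 0.01 (spermatids against pachytene). The 75th percentile gave 0.01 for the last and 0.15 for Sycp1 in pachytene against type A. Quantile normalization gave -0.05 for Sycp1 (pachytene against type B) and -0.14 for Tex12 (pachytene against type A). Over left-out arrays, pachytene against type B ran from -0.20 to 0.70 for Hormad1, -1.14 to 1.24 for Sycp1 and -0.05 to 0.83 for Sycp3. Type B against type A ran from -1.47 to 0.90 for Sycp1, -0.61 to 0.82 for Sycp2 and -0.07 to 0.81 for Sycp3. Pachytene against type A ran from -0.32 to 0.46 for Hormad2, -0.64 to 0.17 for Sycp1 and -0.04 to 0.15 for Tex12, and spermatids against pachytene from -0.26 to 0.17 for Hormad2.

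The replicate numbers were not taken as a pairing: deviations of same-numbered arrays correlated from -0.27 to 0.35 over the 6 pairs of stages. The replicate block added the call of Sycp2 between type B and pachytene cells (1.16, adjusted p = 0.0215, in a range of 0.00296 to 0.326) and changed no other call of the 8 genes. Precision is limited by 2 arrays per stage, and by signal over background most for Hormad2, whose values lay near the array median.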
